A study of Mus musculus with 8 samples.

Results

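Among the genes expressed in mouse islets, 38 were lower in every β-tetO-NICD library by a clear margin, and these genes are described here by class and by islet function. They were chosen by a rule on the deposited counts: a mean level of at least 2 CPM (raw counts scaled by the column total) over the 4 Control libraries, and a lowest Control value at least 2 times the highest β-tetO-NICD value. Of 32531 genes in the table, 12745 had a mean Control CPM of at least 2, and the 38 are 0.298% of these. Since the rule used the only comparison in the study, all values of the 38 genes below are a description, with no test of a difference.

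RNA was sequenced from isolated pancreatic islets of 4 Control mice (RIP-Cre+, Rosa26-rtTA+, tetO_NICD-) and 4 β-tetO-NICD mice (RIP-Cre+, Rosa26-rtTA+, tetO_NICD+), all given doxycycline for 8 weeks on a mixed C57BL/6J, 129X1/SvJ and BALB/c background. Controls thus carried Cre and rtTA and received the drug as well, and the groups differed in the tetO_NICD transgene. An insulin promoter drives Cre, so the transgene could be switched on only where that promoter had been active, whereas the RNA came from whole islets with their α, δ and other cells. Values of single libraries are given in the order Control 1, 2, 3 and 4, then β-tetO-NICD library 1, 2, 4 and 5, as the columns are named.

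Notch is a membrane receptor whose intracellular domain (NICD) is cut free by ligand, enters the nucleus and acts with the DNA-binding protein RBPJ to switch on repressors such as Hes1. β cells take up glucose, trap it as glucose-6-phosphate, close their ATP-sensitive potassium channels and release insulin granules when calcium enters. In this they use much of the release machinery of neurons, including synaptotagmins, RIM proteins and the effectors of Rab GTPases. In bulk islet RNA, fewer β cells and less RNA of a gene per β cell cannot be told apart.

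The sequence just upstream of the start is shown for 5 of the genes, since NICD acts through RBPJ and its target repressors through DNA boxes: an islet glucose-6-phosphatase (G6pc2), both Rab effectors of granules (Sytl4, Rph3a), a potassium channel subunit (Kcnf1) and the first enzyme of catecholamine synthesis (Th). Each is the 250 bases before a RefSeq start (GRCm38.p6), read 5′ to 3′ on the strand of the gene. They span chr2:69210823-69211072 (+) for G6pc2, chrX:133981813-133982062 (-) for Sytl4, chr5:121010093-121010342 (-) for Rph3a, chr12:17176889-17177138 (-) for Kcnf1 and chr7:142899996-142900245 (-) for Th. Capitals mark the RBPJ core (TGGGAA) in G6pc2 and Sytl4, the N-box (CACNAG) bound by Hes-type repressors in G6pc2, Rph3a and Kcnf1, and the cyclic AMP response element (TGACGTCA) in Th, all on either strand.
G6pc2: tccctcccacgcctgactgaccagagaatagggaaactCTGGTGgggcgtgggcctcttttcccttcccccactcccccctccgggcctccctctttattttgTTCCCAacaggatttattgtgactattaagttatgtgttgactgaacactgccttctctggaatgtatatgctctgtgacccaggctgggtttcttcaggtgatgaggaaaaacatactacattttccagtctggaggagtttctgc
Sytl4: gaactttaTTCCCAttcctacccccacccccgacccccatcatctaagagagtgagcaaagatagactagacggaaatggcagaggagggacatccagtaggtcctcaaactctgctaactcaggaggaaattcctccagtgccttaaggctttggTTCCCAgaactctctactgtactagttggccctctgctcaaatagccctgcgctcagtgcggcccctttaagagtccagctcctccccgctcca
Rph3a: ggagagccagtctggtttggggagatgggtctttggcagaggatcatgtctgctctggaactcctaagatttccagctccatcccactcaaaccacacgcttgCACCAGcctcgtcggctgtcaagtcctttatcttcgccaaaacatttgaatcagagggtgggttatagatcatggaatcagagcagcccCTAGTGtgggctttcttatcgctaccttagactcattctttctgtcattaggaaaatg
Kcnf1: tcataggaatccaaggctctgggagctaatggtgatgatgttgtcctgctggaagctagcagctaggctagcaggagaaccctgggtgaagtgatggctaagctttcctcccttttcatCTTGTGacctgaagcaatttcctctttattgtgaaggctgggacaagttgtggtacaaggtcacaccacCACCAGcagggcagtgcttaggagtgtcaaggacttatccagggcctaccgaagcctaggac
Th: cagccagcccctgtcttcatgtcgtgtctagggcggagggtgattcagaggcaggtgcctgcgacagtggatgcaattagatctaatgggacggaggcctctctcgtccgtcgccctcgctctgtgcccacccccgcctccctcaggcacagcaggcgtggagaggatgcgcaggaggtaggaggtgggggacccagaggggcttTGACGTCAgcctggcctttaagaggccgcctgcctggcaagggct

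These letters were sought in 39 promoter windows of the 32 genes with an entry in the RefSeq table. The promoters of Kirrel3, Pstpip2, Msln, St8sia5, Tnfrsf11b and Fam179a were not analysed here. The RBPJ core was in 3 of the 39 windows (7.69%), those of G6pc2, Lactbl1 and Sytl4, against 20.6% of the windows of all genes with a mean Control CPM of at least 2 and 21.6% of all 32851 windows in the table. An N-box was in 20 windows (51.3%) against 35.1% and 36.7%, and the class C E-box CACGNG, the other Hes-type box, in 10 (25.6%) against 34.1% and 23.5%. The letters CACGAG satisfy both of these patterns, as in Ivd, where one match counts for each. The cyclic AMP response element was found only in Th, with its first base 45 bases before the start, a TATA box (TATAAA) only in Lonrf3, and a MAF-like motif (TGCTGA) in 3 windows, of B3galt1 and G6pc2. These last motifs were in 2.56%, 2.56% and 7.69% of the 39 windows, against 2.63%, 6.36% and 12.8% of the windows of the expressed genes and 1.55%, 12.4% and 16.1% of all windows. These matches describe the windows and are not binding sites. The median ratio of observed to expected CpG was 0.412 against 0.712 for the expressed genes and 0.374 for all windows, and 28.2% of windows against 64.0% and 33.9% exceeded 0.6.

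**Figure D1:**
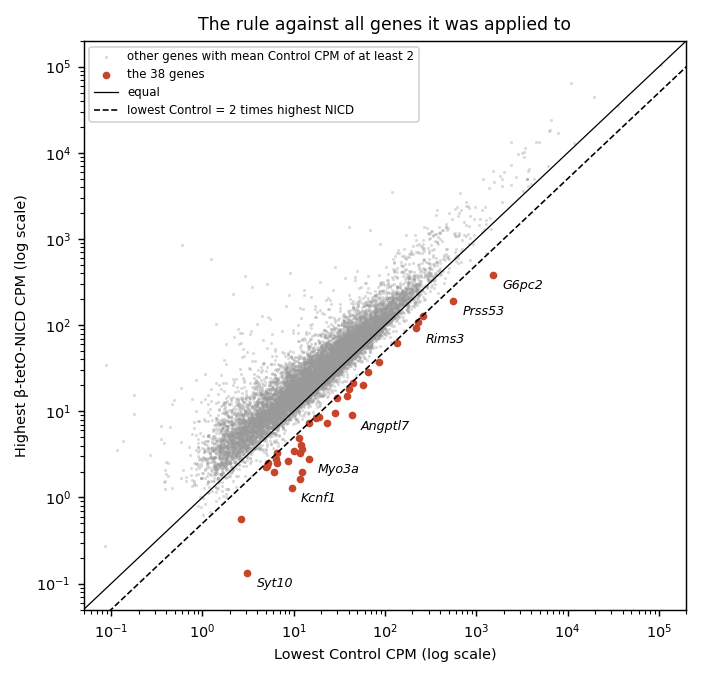
Lowest Control CPM (x axis) against highest β-tetO-NICD CPM (y axis), both on log scales, for the 12745 genes with a mean Control CPM of at least 2. The 38 genes (red) lie on or under the dashed line, where the lowest Control value is 2 times the highest β-tetO-NICD value, from Syt10 at the lower left to G6pc2 at the upper right.

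The 38 genes differed widely in level. Their mean Control level ran from 3.65 CPM (Syndig1) to 1781 CPM (G6pc2) with a median of 23.1 CPM, beside a median of 23.9 CPM over all 12745 genes. Together they summed to 3927, 4672, 4008 and 5030 CPM in the Controls and to 1118, 894.5, 1116 and 881.4 CPM in the β-tetO-NICD libraries, and G6pc2 alone made up 40.4% of the mean Control sum. The mean β-tetO-NICD level was a median of 22.7% of the mean Control level, from at most 2.14% (Syt10) to 37.1% (E2f1), with 24 genes under 25% and 7 under 10%. In edgeR's quasi-likelihood test over 15082 genes, 388 were lower in β-tetO-NICD islets (2.57%) and 632 higher (4.19%). All 38 were among the lower ones, of which they are 9.79%, and since the rule chose them on the same contrast, nothing is read from this. The rule turned round, with every β-tetO-NICD library at least 2 times every Control, found 109 genes.

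Just inside the threshold were Kirrel3, E2f1, Sytl4 and Cttnbp2, whose lowest Control value was just 2, 2.03, 2.05 and 2.06 times the highest β-tetO-NICD value. Among the nearest genes outside were Fkbp1b (1.99), Spock2 (1.94) and Igfbp5 (1.93), so the boundary cuts through a continuum.

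**Figure D2:**
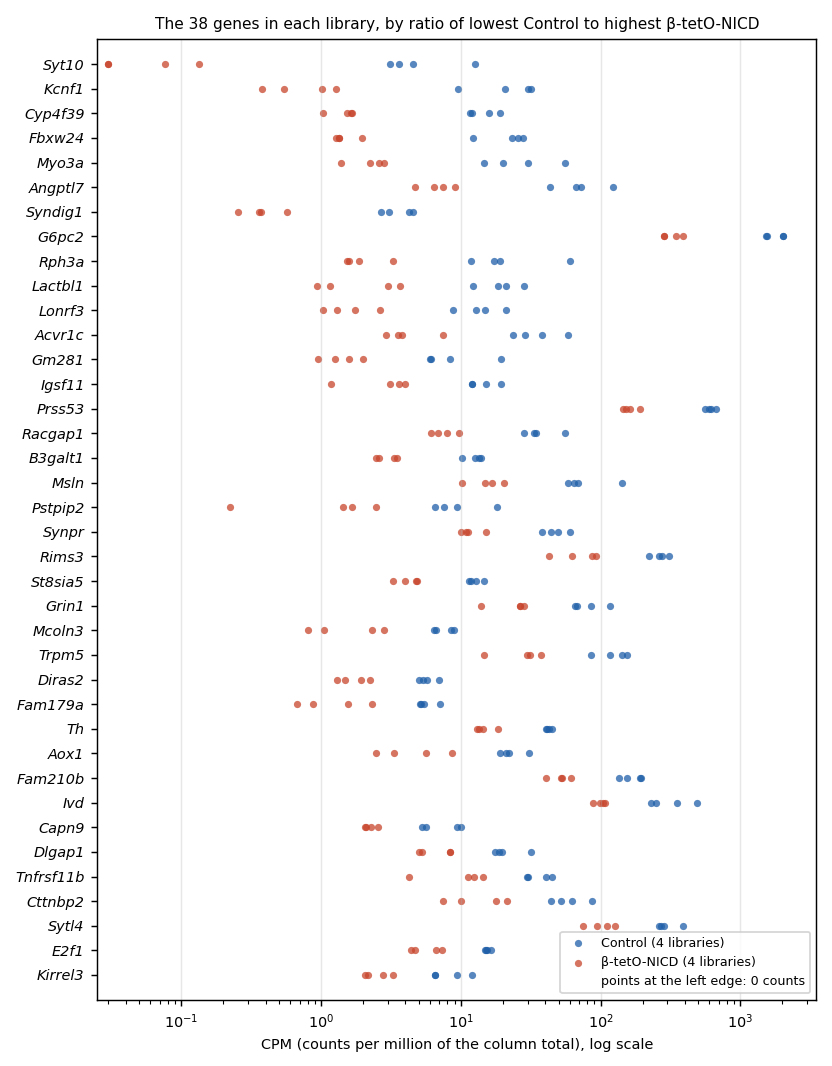
CPM of each of the 38 genes in every library on a log axis, Control in blue and β-tetO-NICD in red, ordered from the highest ratio of lowest Control to highest β-tetO-NICD value. In every row the red points lie left of the blue ones, and the rows differ more in level, from Syndig1 to G6pc2, than in the gap between groups.

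Of the genes grouped by their known roles after their values had been seen, 5 belong to granule and vesicle release, and they spanned nearly the whole range of depletion. Syt10, a calcium-sensing synaptotagmin, was at 4.54, 3.61, 3.12 and 12.6 CPM in the Controls and had 0, 0, 2 and 3 counts in the β-tetO-NICD libraries. With every β-tetO-NICD library at or under a floor of 3 counts, its mean was at least 46.6-fold lower. Rph3a (rabphilin), an effector of Rab3 and Rab27 on secretory vesicles, went from 17.2, 11.9, 19.1 and 60.0 CPM to 1.52, 1.86, 3.26 and 1.57 CPM, a mean of 7.58% of Control. Control 4 was far above the other Controls in both genes.

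Sytl4 (granuphilin), which links Rab27 on the insulin granule to the docking machinery, stood at 286, 260, 271 and 388 CPM against 110, 75.1, 127 and 94.0 CPM, or 33.8% of Control. Rims3, a small RIM protein of the release site, was at 310, 263, 221 and 277 CPM against 92.0, 62.8, 86.3 and 42.9 CPM (26.5%). The vesicle membrane protein Synpr (synaptoporin) was at 49.8, 60.7, 44.3 and 38.2 CPM against 10.1, 15.1, 10.9 and 11.3 CPM (24.6%). Per kilobase of transcript, Sytl4 (80.3 CPM per kb) and Rims3 (41.2) were far above Synpr (11.2), Rph3a (6.52) and Syt10 (3.24) in Control islets. The rarest of them, Syt10 and Rph3a, kept the smallest shares of their Control level. The rule chose these genes on the same values, so no link between abundance and loss is read from this.

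The paralogs of these genes differed in their values. Syt14 was at a log2 fold change of -0.90 ± 0.27 (SE, n = 4 and 4; adjusted p = 0.0700), the lowest among the 6 paralogs of Syt10 looked at. Syt13, a non-calcium-binding synaptotagmin that is abundant in islets, stood at -0.33 ± 0.17 (adjusted p = 0.211), while Syt7, a main calcium sensor of β cell release, was at -0.50 ± 0.23 (adjusted p = 0.159). Among relatives of Sytl4, Sytl3 fell (log2 fold change -1.23 ± 0.22, adjusted p = 0.0120) while Sytl2 was at -0.74 ± 0.37 (adjusted p = 0.196) and Sytl5 at -1.13 ± 0.79 (adjusted p = 0.328), the β-tetO-NICD libraries of the latter ranging from 1.03 to 24.8 CPM. Rims2, the large RIM of β cells, was at -0.86 ± 0.42 (adjusted p = 0.184), while Rims1, at only 0.60 CPM in Controls, rose (1.81 ± 0.32, adjusted p = 0.0111). Rab27a and Rab3a, which Sytl4 and Rph3a bind, were at -0.44 ± 0.14 (adjusted p = 0.0798) and -0.01 ± 0.14 (adjusted p = 0.970), and Syp, the closest relative of Synpr, at 0.44 ± 0.20 (adjusted p = 0.166).

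The postsynaptic side of neuronal contacts and adhesion account for 6 of the 38: Grin1, Dlgap1, Syndig1, Cttnbp2, Igsf11 and Kirrel3. Grin1, the subunit that every NMDA-type glutamate receptor needs, was at 86.0, 65.4, 67.4 and 117 CPM against 28.3, 26.4, 26.3 and 13.99 CPM, or 28.3% of Control. Of its partner subunits, Grin2c was the only one above 2 CPM in Controls and showed a log2 fold change of -0.58 ± 0.25 (adjusted p = 0.150). Grin2d lay at 1.47 CPM, and Grin2a and Grin2b had at most 5 counts in any library.

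Syndig1, an AMPA receptor-associated membrane protein, had the lowest Control mean CPM of the 38, not adjusted for length, at 2.67, 4.28, 3.08 and 4.57 CPM against 0.37, 0.25, 0.57 and 0.36 CPM (10.6% of Control). The scaffold Dlgap1 had a Control mean of 21.9 ± 6.7 CPM (SD, n = 4) and a β-tetO-NICD mean of 6.76 ± 1.85 CPM, and the cortactin-binding Cttnbp2 61.4 ± 18.4 and 14.2 ± 6.6 CPM. The immunoglobulin-family adhesion protein Igsf11 was at 14.6 ± 3.5 and 2.98 ± 1.25 CPM, and Kirrel3, another of that family, at 8.59 ± 2.59 and 2.57 ± 0.56 CPM. Their relatives went different ways: Kirrel2 rose (log2 fold change 1.26 ± 0.32, adjusted p = 0.0469), Kirrel was at -0.36 ± 0.35 (adjusted p = 0.485), and Dlgap3, Dlgap4 and Dlg4 did not pass the test, with values between -0.15 and 0.51.

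Among 50 expressed potassium channel genes by symbol, the rule chose 1 (2%), beside 0.298% of all expressed genes. This was Kcnf1, a subunit that forms no channel alone and modifies Kv2 channels. It stood at 30.3, 9.50, 31.6 and 20.6 CPM in Controls against 1.01, 0.38, 1.29 and 0.54 CPM in β-tetO-NICD libraries, leaving 3.50% of the Control mean. Kcnb2, a Kv2 gene with whose product it can assemble, did not pass the test, at a log2 fold change of -0.12 ± 0.46 (adjusted p = 0.866).

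The TRP family gave 2 of its 12 expressed genes (16.7%, beside 0.298% of all expressed genes), too few genes to read a share from. Trpm5, a calcium-activated cation channel of β cells, was at 117, 85.6, 154 and 143 CPM against 31.0, 14.6, 29.95 and 37.5 CPM (22.6% of Control). Mcoln3, an endolysosomal cation channel, was at 6.46, 6.69, 8.98 and 8.55 CPM against 2.30, 1.06, 2.80 and 0.81 CPM (22.7%). Trpm2, a paralog of Trpm5 that also conducts in β cells, fell (log2 fold change -1.26 ± 0.21, adjusted p = 0.00876), whereas Trpm4 was at 0.26 ± 0.14 (adjusted p = 0.216) and Mcoln1 at -0.17 ± 0.12 (adjusted p = 0.360).

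Enzymes of metabolism made up 7 of the 38, led by G6pc2, which turns glucose-6-phosphate back into glucose in β cells. G6pc2 stood at 1523, 2026, 1559 and 2019 CPM in Controls against 386, 286, 344 and 286 CPM in β-tetO-NICD libraries, leaving 18.3% of the Control mean. At 942 CPM per kilobase of transcript it was the most abundant of the 38 in Control islets, before the secreted protease gene Prss53 (287) and Ivd (89.9). Its groups lay far apart, with the lowest Control 3.94 times the highest β-tetO-NICD library. Other genes of glucose handling differed: the widely expressed phosphatase G6pc3 lay at a log2 fold change of 0.08 ± 0.16 (adjusted p = 0.737), while Slc2a2, the glucose transporter of β cells, fell (-1.80 ± 0.41, adjusted p = 0.0331).

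Th, tyrosine hydroxylase, was the steadiest of the 38 among Controls, at 41.5, 44.7, 40.7 and 42.7 CPM, and was at 13.5, 18.3, 14.4 and 13.0 CPM in the β-tetO-NICD libraries (34.9%). The next enzyme of that path, Ddc, was at a log2 fold change of -0.21 ± 0.18 (adjusted p = 0.435). Gch1, which makes the cofactor of Th, was at -0.27 ± 0.16 (adjusted p = 0.256). Th also marks sympathetic nerve fibres, and without Th the other 12 Schwann cell and neuronal marker genes summed to 99.5 to 153.5 CPM in Controls against 83.0 to 126.7 CPM in β-tetO-NICD islets, ranges that overlap. Of the other 10 tested genes of that marker list, 0 passed edgeR's adjusted threshold, while 1 was lower at an unadjusted p under 0.05 and 1 by DESeq2. Dbh, which completes noradrenaline synthesis in nerves, had 0, 2, 3 and 13 counts in Controls against 1, 7, 1 and 4 in β-tetO-NICD libraries. Which cells the Th transcripts came from was not tested.

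Ivd, isovaleryl-CoA dehydrogenase in leucine breakdown, was at 250, 486, 228 and 354 CPM against 108, 87.8, 98.4 and 104 CPM (30.2%). Control 2 and Control 4 were high, while the β-tetO-NICD libraries lay close together. Of the 7 other enzymes of this path that were looked at, 0 passed edgeR's adjusted threshold, while 2 were lower and 2 higher at an unadjusted p under 0.05, and DESeq2 called 1 each way. Bcat2, Bckdha, Bckdhb, Mccc1, Mccc2 and Auh had log2 fold changes between -0.71 and 0.43. Cyp4f39, a fatty acid ω-hydroxylase, was at 12.03, 11.6, 15.8 and 18.97 CPM against 1.66, 1.52, 1.63 and 1.03 CPM (9.997%), whereas its paralogs Cyp4f13 and Cyp4f16 had adjusted p values of 0.369 and 0.892.

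Aox1 (aldehyde oxidase) had means of 23.3 ± 5.1 and 5.01 ± 2.75 CPM (SD, n = 4 each). Of the glycosyltransferases, B3galt1 was at 12.6 ± 1.7 and 2.98 ± 0.52 CPM, and the ganglioside sialyltransferase St8sia5 at 12.7 ± 1.5 and 4.22 ± 0.75 CPM. The sialyltransferases were not moved together: St8sia1 also fell (log2 fold change -1.61 ± 0.27, adjusted p = 0.00826), but St8sia3, at 35.6 CPM in Controls, rose (0.88 ± 0.13, adjusted p = 0.00504).

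Receptors and secreted proteins gave 5 genes. Acvr1c (ALK7), a type I receptor for activin and related ligands, was at 23.4, 37.8, 28.8 and 58.8 CPM against 7.42, 2.91, 3.79 and 3.54 CPM, or 11.9% of Control. Its paralogs Acvr1b and Tgfbr1 were at log2 fold changes of -0.07 ± 0.21 (adjusted p = 0.828) and -0.60 ± 0.24 (adjusted p = 0.131), and the type II receptor Acvr2a at -0.62 ± 0.26 (adjusted p = 0.140). Smad3, which carries the signal of these receptors to the nucleus, rose (1.28 ± 0.23, adjusted p = 0.0117), and Smad2 was at -0.29 ± 0.16 (adjusted p = 0.245).

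Angptl7, a secreted angiopoietin-like protein, was at 43.4, 72.7, 66.6 and 122 CPM against 6.41, 4.68, 7.50 and 9.01 CPM (9.04%). Its gene lies within Mtor on the opposite strand, and Mtor itself was at 50.4 CPM in Controls. The serine protease gene Prss53 was at 616, 562, 672 and 598 CPM against 152, 164, 191 and 144 CPM (26.6%), a narrow spread in both groups. Its locus overlaps the end of Zfp646 on the opposite strand (44.4 CPM in Controls), which showed a log2 fold change of -0.45 ± 0.28 (adjusted p = 0.271). It shares its strand with the readthrough model Gm21974 (0.77 CPM). How the authors' counting divided reads at such overlaps is not given in the sources used here.

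Tnfrsf11b (osteoprotegerin), a soluble decoy receptor, was at 40.6, 45.2, 30.3 and 29.7 CPM against 11.3, 12.4, 14.3 and 4.26 CPM (29.0%). Of the other parts of that system, the receptor Tnfrsf11a fell too (log2 fold change -1.32 ± 0.34, adjusted p = 0.0488), and the ligand Tnfsf11 had 1 count in a single library. Msln (mesothelin) was at 58.0, 141, 69.1 and 64.3 CPM against 16.7, 14.8, 10.2 and 20.4 CPM (18.7%). It is best known from mesothelium. The mesothelial genes Upk3b, Lrrn4 and Wt1 reached at most 1.20 CPM in any library, and Muc16, which binds mesothelin, had no counts. Which cells the Msln transcripts came from was not tested.

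Genes of the cell cycle, small GTPases and the cytoskeleton numbered 5. Racgap1, a GTPase-activating protein of the dividing cell's central spindle, was at 28.3, 33.3, 34.4 and 55.3 CPM against 7.93, 6.88, 9.65 and 6.14 CPM (20.2%). Its partners in division were at much lower levels and were not called: Kif23 lay at 1.32 CPM in Controls (log2 fold change 0.08 ± 0.27, adjusted p = 0.847) and Ect2 at 1.75 CPM (-0.59 ± 0.34, adjusted p = 0.243). The proliferation markers Mki67 (-0.07 ± 0.38, adjusted p = 0.911) and Top2a (-0.08 ± 0.26, adjusted p = 0.851) were near 0.

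E2f1, a transcription factor of entry into S phase, was at 15.3, 16.5, 14.8 and 15.2 CPM against 4.38, 4.68, 7.31 and 6.59 CPM, and kept the largest share of its Control level (37.1%). E2f2 was at a log2 fold change of -0.18 ± 0.21 (adjusted p = 0.548), while E2f3 rose (0.90 ± 0.23, adjusted p = 0.0470). The E2F target genes Ccne1, Mcm2 and Mcm5 had adjusted p values of 0.0945, 0.578 and 0.200. E2f1 was one of 3 genes that left the set under edgeR's TMM scaling, with Dlgap1 and Trpm5.

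Myo3a, a myosin with a kinase domain, was at 14.7, 19.9, 30.1 and 55.9 CPM against 2.58, 2.24, 2.80 and 1.39 CPM (7.48%), while its paralog Myo3b had at most 4 counts in any library. The F-BAR membrane-bending protein Pstpip2 was at 6.55, 7.62, 9.33 and 18.2 CPM against 2.49, 1.43, 1.67 and 0.22 CPM (13.95%). Diras2, a Ras-like GTPase, was at 5.77 ± 0.88 and 1.74 ± 0.43 CPM (SD, n = 4 each), and its paralog Diras1 was at a log2 fold change of 0.15 ± 0.21 (adjusted p = 0.642).

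The remaining 7 genes are of mixed or little described function and held a median of 14.5% of their Control level. Fbxw24, of a mouse cluster of closely similar F-box genes between which counts may be split, was at 12.2, 25.6, 23.4 and 27.6 CPM against 1.34, 1.35, 1.29 and 1.97 CPM (6.70%). Lactbl1, named for a β-lactamase-like domain, was at 19.9 ± 6.6 and 2.19 ± 1.35 CPM, and the RING finger gene Lonrf3 at 14.3 ± 5.1 and 1.68 ± 0.70 CPM, while Lonrf1 and Lonrf2 did not pass the test (adjusted p = 0.782 and 0.237). The predicted gene Gm281 was at 9.92 ± 6.30 and 1.44 ± 0.44 CPM, the calpain Capn9 at 7.60 ± 2.46 and 2.25 ± 0.21 CPM, and Fam179a, named Togaram2 in the annotation, at 5.69 ± 0.92 and 1.35 ± 0.74 CPM. Fam210b, a mitochondrial protein, was at 136, 154, 190 and 194 CPM against 52.1, 53.0, 61.8 and 40.7 CPM (30.8%), and its paralog Fam210a fell (log2 fold change -0.83 ± 0.18, adjusted p = 0.0275).

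**Figure D3:**
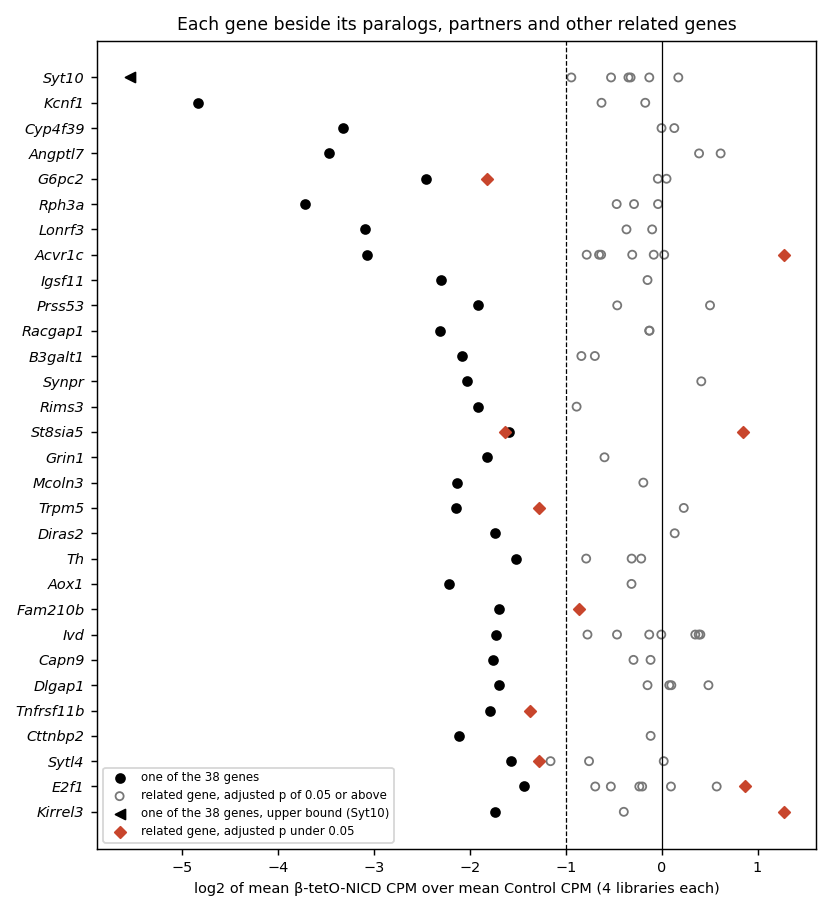
log2 of the mean β-tetO-NICD CPM over the mean Control CPM (4 libraries each) for the 30 genes that have a paralog, partner or other related gene with a mean Control CPM of at least 2. Black points are the genes chosen by the rule (an arrowhead marks an upper bound), open circles are relatives that did not pass edgeR's test and red diamonds relatives that did, most relatives lying between -1 and 0.6.

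Over all these related genes (paralogs, partners, genes of the same pathway, and a few neighbours and cell type or cell cycle markers), picked after the 38 genes were known, 96 were in the count table and 75 had a mean Control CPM of at least 2. Of the 75, 6 fell (Fam210a, Slc2a2, St8sia1, Sytl3, Tnfrsf11a and Trpm2), 4 rose (E2f3, Kirrel2, Smad3 and St8sia3) and 65 did not pass the test. Over all 15082 tested genes, 2.57% fell and 4.19% rose, and as the 75 were hand-picked, their counts are a description only. Their mean β-tetO-NICD level was a median of 87.6% of Control. With Rims1 that makes 11 calls, of which 6 held whichever library was left out: Rims1, Smad3, St8sia1, St8sia3, Sytl3 and Trpm2. The calls of E2f3, Fam210a, Kirrel2, Slc2a2 and Tnfrsf11a were each lost in 6 of the 8 such fits, with a highest adjusted p of 0.123, 0.0925, 0.123, 0.109 and 0.147 and no change of sign.

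In the wider gene lists for islet function, the 38 genes fell in few places. The list for β cell identity and glucose sensing held G6pc2 and Trpm5, and of its other 27 tested genes 4 fell (Ero1lb, Pcx, Slc2a2 and Ucn3) and 23 did not pass the test, with a median log2 fold change of -0.51 beside 0.00 over all 15082 genes. Of the transcription factors, Pdx1 and Nkx6-1 were at 0.04 ± 0.22 each (adjusted p = 0.901 and 0.912) and Mafa at -0.86 ± 0.45 (adjusted p = 0.207). Exocytosis machinery held 4 of the 38 (Rims3, Rph3a, Syt10 and Sytl4). Of its other 71 genes 3 fell (Doc2b, Sv2a and Sytl3), 4 rose (Rab27b, Rab3b, Rims1 and Syt5) and 64 did not pass. By DESeq2 13 of these 71 were lower and 6 higher, and in edgeR's fit their median log2 fold change was -0.33. Syt5, a calcium-binding synaptotagmin of granules, rose by a log2 fold change of 2.62 ± 0.29 (adjusted p = 9.2e-04), against the direction of Syt10.

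Monoamine, GABA and glutamate genes held Grin1 and Th, and 3 of the other 25 fell: Tph1, the first enzyme of serotonin synthesis (-2.49 ± 0.49, adjusted p = 0.0179), Gad1, which makes GABA (-1.50 ± 0.24, adjusted p = 0.00689), and Maob, which breaks down monoamines (-1.50 ± 0.20, adjusted p = 0.00279). Slc1a1 rose in that list. Prohormone processing held only Sytl4, and 1 of the other 14 genes fell, the convertase Pcsk1 (-1.07 ± 0.27, adjusted p = 0.0446). By DESeq2 1 of these 14 was lower and 3 were higher.

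No gene of the 38 was on the list of islet G protein coupled receptors, where 2 of 40 tested genes fell and 7 rose, among them Ffar2 (3.52 ± 0.29, adjusted p = 1.6e-04) and Oxtr (2.31 ± 0.22, adjusted p = 4.3e-04). By DESeq2 8 of these 40 were lower and 9 higher. The list of cyclic AMP, G protein and calcium signalling held none of the 38 either (5 of 62 fell and 3 rose, by DESeq2 9 and 6). That of synaptic adhesion and axon guidance also held none (1 of 55 fell and 7 rose, by DESeq2 9 and 9). The genes classed above as postsynaptic and adhesion were not entries of that list. The rule chose only 0.298% of expressed genes, so lists of 40 to 62 genes without any of the 38 say little. Over all 15082 tested genes 2.57% fell and 4.19% rose, and by DESeq2 1244 of 15066 were lower and 1495 higher. The counts for the lists are a description. All 38 are protein coding in GENCODE M21.

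The calls around the 38 genes depended on the mice in part. Of 55 calls among the relatives, gene lists and cell type markers, 21 held whichever library was left out, among them those of Gad1, Maob, Syt5, Ffar2 and Oxtr, and no sign changed. Tph1 and Ero1lb lost the call only without β-tetO-NICD library 2 (adjusted p = 0.0665 and 0.0533). In the lists that hold some of the 38, the calls of Pcx, Ucn3, Pcsk1, Doc2b, Sv2a, Rab27b, Rab3b and Slc1a1 were lost in 4 or more of the 8 fits. So were those of the islet cell markers Irx1, Irx2 and Hhex and of the leukocyte marker C1qa (highest adjusted p 0.0932).

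The 38 genes were set beside other β cell genes in the same libraries. Ins1 and Ins2 together took 14.95% to 17.3% of counts in Controls and 6.16% to 13.9% in β-tetO-NICD libraries. The geometric mean of the β cell marker list without G6pc2 was 1093 to 1383 CPM and 653 to 839 CPM. Besides Ins1 and Ins2 that list holds Slc2a2 and Ucn3, which fell, and Pdx1 and Nkx6-1 (log2 fold change 0.04 each). It is therefore not a measure of the amount of β cells alone. Of the other islet cells, the α cell markers summed to 11667 to 42061 CPM in Controls against 60082 to 68168 CPM in β-tetO-NICD islets, where 3 of 6 genes rose, Irx1 and Irx2 among them, and of the δ cell markers Hhex rose. The PP cell markers summed to 6185 to 12802 CPM in Controls and 3845 to 9870 CPM in the other group. Leukocyte markers summed to 187.8 to 239.2 CPM in Controls against 261.1 to 349.8 CPM in β-tetO-NICD islets, ranges that do not overlap, and 1 of 12 tested genes rose (C1qa). Ductal markers summed to 314.1 to 443.1 CPM against 435.6 to 665.4 CPM, and the part of these cells in the values of the 38 genes was not tested. Acinar markers were abundant in both groups (52797 to 103278 and 52378 to 157946 CPM), with 0 of 23 called by edgeR, 1 lower at an unadjusted p under 0.05 and 1 by DESeq2.

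Expressed per unit of insulin mRNA, 8 of the 38 still met the rule: Syt10, Kcnf1, Cyp4f39, Fbxw24, Myo3a, Angptl7, Syndig1 and Rph3a. Per unit of the β cell marker list, 11 did, these 8 with G6pc2, Lactbl1 and Lonrf3. The median level left in β-tetO-NICD islets moved from 22.7% of Control to 41.0% and 38.03%. Every Control lay above every β-tetO-NICD library for 38 of the 38 genes on the β cell marker scale and for 27 on the insulin scale, beside 0.416% and 0.275% of the 12745 genes. The rule chose the 38 on the same values, so nothing is read from these shares. The 11 whose groups then overlapped were Rims3, St8sia5, Grin1, Diras2, Fam179a, Aox1, Ivd, Dlgap1, Tnfrsf11b, Cttnbp2 and Sytl4. How much of each difference goes with the lower β cell signal was not tested.

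**Figure D4:**
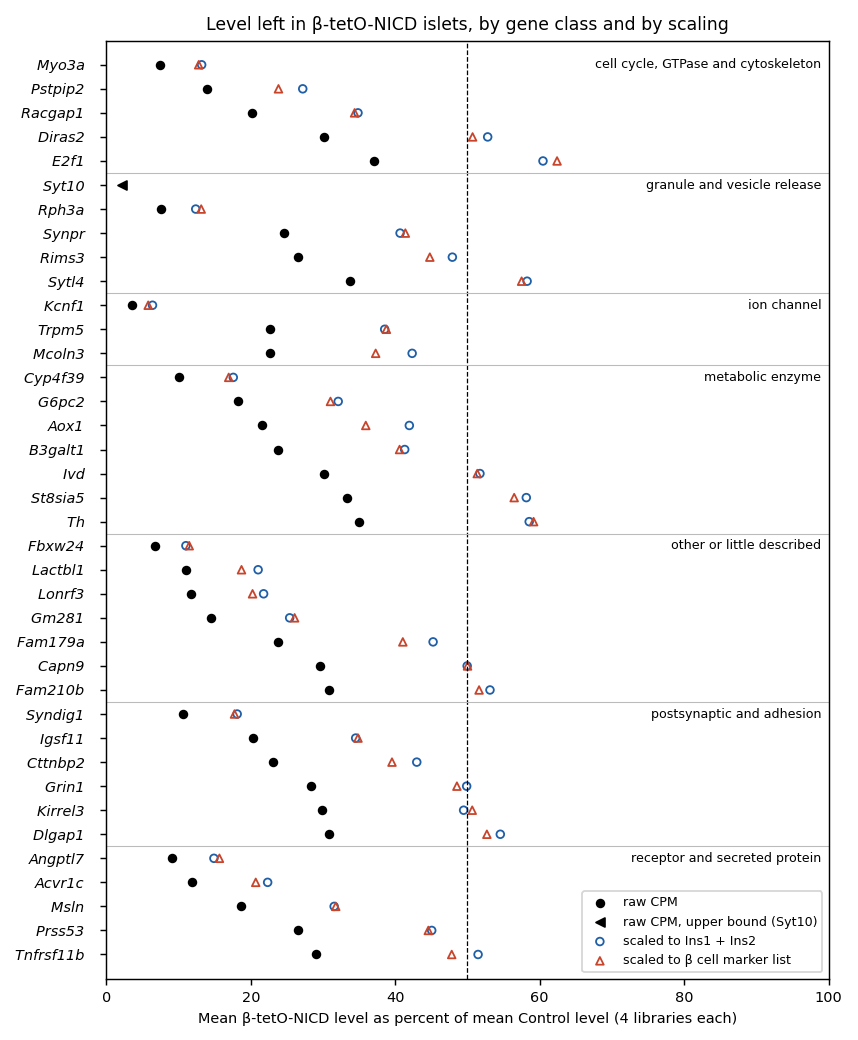
Mean β-tetO-NICD level as percent of the mean Control level (4 libraries each) for the 38 genes by class, from raw CPM (black), per insulin mRNA (blue circles) and per β cell marker list (red triangles), with a dashed line at 50%. Raw values end at 37.1%, scaled values move right by a similar factor in every class, and Syt10 is shown as an upper bound only.

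The spread between mice was wide for these genes. The highest Control was a median of 1.79 times the lowest, from 1.10 times in Th to 5.06 times in Rph3a, against 1.44 times for all genes with a mean Control CPM of at least 2, and 13 of the 38 exceeded 2 times. Control 4 was the highest Control in 23 of the 38 genes (60.5%), against 32.0% of all these genes, and Control 2 was the lowest in 11 (28.9%), against 9.42%. Among β-tetO-NICD libraries, library 4 was highest in 17 genes and library 1 in 14, shares (44.7% and 36.8%) not far from those of all genes (40.0% and 30.3%). Leaving out library 1 would have let 86 genes meet the rule, the most of any single library.

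Library totals were 21701223 to 26413146 counts, where 3 counts are 0.114 to 0.138 CPM. Averaged over genes with at least 20 counts in a pair of libraries, counting error is small beside the spread between mice. This need not hold for genes with few counts. Notch1, whose intracellular part the transgene encodes, was at 57.7 ± 11.7 CPM in Controls against 1038 ± 392 CPM in β-tetO-NICD islets (SD, n = 4 each), and Hes1 at 7.31 ± 0.88 and 43.5 ± 8.7 CPM. The study's methods name male islets for gene expression, yet the Y-linked gene Eif2s3y had 1300 to 1527 counts in Control 2, Control 4 and library 5 and at most 1 in the others. Control 2 and Control 4 were both above the other Controls in 15 of the 38 genes (39.5%), against 31.6% of all genes with a mean Control CPM of at least 2. The part of this difference in their values was not tested.

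The 38 genes were spread unevenly over the genome. Chromosome 2 carried 9 of them (23.7%), against 7.85% of all genes with a mean Control CPM of at least 2: Myo3a, Grin1, Acvr1c, B3galt1, G6pc2, Ivd, Syndig1, E2f1 and Fam210b. Most lay far apart there, the closest being B3galt1 and G6pc2 at 1088 kb with 4 expressed genes between them. The closest pairs anywhere were Th and Trpm5 on chromosome 7, 138 kb apart with 1 expressed gene between, and Synpr and Gm281 on chromosome 14, 198 kb apart with none between. Trpm5 overlaps Tssc4 on the opposite strand (94.9 CPM in Controls). Chromosomes 10, 11 and 19 carried none.

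**Figure D5:**
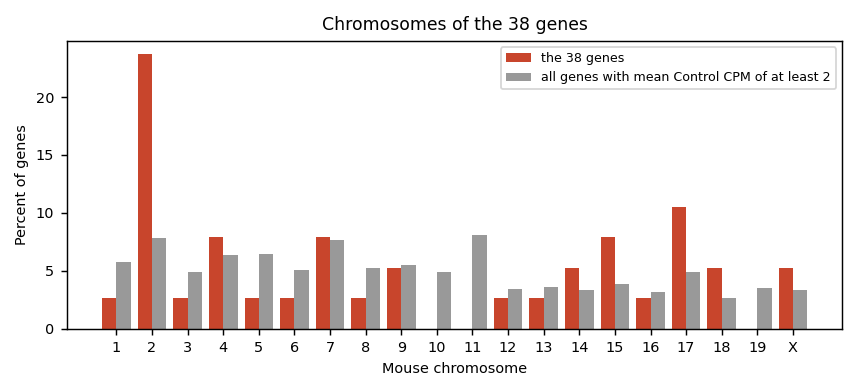
Percent of the 38 genes (red) and of all 12745 genes with a mean Control CPM of at least 2 (grey) on each mouse chromosome. Chromosome 2 stands out with 23.7% against 7.85%.

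In median transcript length the 38 genes were close to all expressed genes. Their longest annotated transcripts had a median of 3560 bases against 3489 for all genes with a mean Control CPM of at least 2, and 20 of the 38 were longer than that median. Libraries did differ in how counts depended on length across genes: Spearman's rho between length and a library's level relative to the mean was 0.48 to 0.56 in Controls 1, 2 and 4 and in library 1, and -0.23 to -0.58 in Control 3 and libraries 2, 4 and 5. The sign of this trend went largely, though not wholly, with genotype. No value here was corrected for length, and the part of the trend in the values of the 38 genes was not tested.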

How the data were processed

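Islet RNA was sequenced from 4 Control and 4 β-tetO-NICD mice as stranded poly(A) libraries. The authors ran Kallisto, which assigns reads to transcripts without aligning each base, against GRCm38 transcripts and deposited whole-number counts per gene symbol, not normalized. The Kallisto version, the annotation release and the strand setting are not given in the sources used here. A deposited table of the authors' own limma comparison (fold changes, mean expression, t, p, adjusted p, log odds and −log10 p) was not used. The β-tetO-NICD columns are numbered 1, 2, 4 and 5 and the labels' mice 1 to 4, so which mice columns 4 and 5 hold is not settled, and both entered as unnumbered replicates.

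CPM was each count divided by its column total. The 38 genes and all gene lists were chosen with earlier results of these data known, and the role classes and the paralogs, partners and other related genes were set after the values were seen. Named genes were the 15 with the highest ratio and the 15 with the highest Control mean, those on a list or in a symbol family, the 4 nearest the threshold on either side, those whose reading is limited by an overlapping or similar gene, and non-members that passed the test. The rest were added so that each of the 38 is given.

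Other genes were compared with edgeR 4.0.16 in R 4.3.3 (TMM, at least 10 counts in at least 4 of 8 libraries, quasi-likelihood test, no covariate, Benjamini-Hochberg adjusted p under 0.05 over 15082 genes), tested first on simulated data. Adjusted p values are from this fit, which judges each difference against the spread between mice. The SE of a log2 fold change is its absolute value divided by the square root of the quasi-likelihood F statistic. Genomic positions are from GENCODE M21, promoter windows from RefSeq (GRCm38.p6). DESeq2 1.42.0, limma-voom (limma 3.58.1), other scalings, filters and thresholds, a replicate block and leaving out each library were tried, and scaling to insulin or to the β cell marker list was added after the data were seen. Figures were drawn with matplotlib 3.10.9 in Python 3.11.15. A few genes are not reported here.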

Additional observations from a re-analysis of the deposited data

Results flagged for a closer look

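Single libraries stood apart from the other 3 of their group in 7 of the 75 groups of 4 values tested, by the share of the group's range that separates an extreme library from its nearest neighbour, above Dixon's 95% critical value. Chance gives about 1 such group in 20 among values that were not selected, a rate that does not apply here, since the rule chose the 38 genes on these same values. Control 4 was far above the other Controls for Syt10 (0.851), Rph3a (0.849), Dlgap1 (0.846) and Fam179a (0.836), and Control 2 for Msln (0.867). Among β-tetO-NICD libraries, library 5 was high for Fbxw24 (0.908) and low for Grin1 (0.864).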

How the results depend on the processing

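Of the 38 genes, 35 were kept under TMM (38 genes in all) and 35 under median-ratio size factors (39). All 38 were kept without the 10 genes with the most counts (42), 34 without acinar genes in the totals (35). A mean Control CPM of at least 1 gave 42 genes and of at least 10 gave 30. A ratio of at least 1.5 gave 91 genes and of at least 3 gave 13, and scaling to insulin 8 and to the β cell marker list 11. Leaving out 1 library gave 39 to 86 genes, the highest without β-tetO-NICD library 1. None of the 38 could be lost this way, as their lowest Controls were all above the minimum mean, so this says nothing about their stability. Applied as a replicate block, inside each numbered pair, the rule found 144 genes, since only numbers 1 and 2 are settled for both groups. Their deviations correlated at 0.304 and -0.117, so the numbers were not taken as pairs. Over the whole table edgeR called 1020 genes, 970 with the replicate block, 1083 by limma-voom and 2739 by DESeq2, and 319 (without β-tetO-NICD library 2) to 4954 (without library 1) when 1 library was left out. The count was 496, 503 and 430 without Control 1, 2 and 4, and 374 and 603 without β-tetO-NICD library 4 and 5. Calls of other genes named beside the 38 thus rest on this set of mice. The reverse rule gave 109 genes, 122 under TMM and 112 to 197 with 1 library left out (197 without β-tetO-NICD library 1). The cause of these shifts was not tested. Only Syt10 was at or under 3 counts in every β-tetO-NICD library. Counts were also low for some others, where counting error is larger. Examples are Syndig1 (8, 6, 15 and 8 counts), Pstpip2 (5 in library 5) and Kcnf1 (9 in library 2).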
